A study of Mus musculus with 8 samples.

Results

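Spleen CD8 T cells of wild-type C57BL/6 mice, sorted as true memory or naive, were compared by bulk RNA sequencing, with 1 library for each population. These are 2 of the 8 libraries of a series on memory-like CD8 T cells. Per the labels, cells bound to anti-CD8 magnetic beads were sorted as naive when CD44- and CD49d-, as true memory when CD44hi and CD49d+, and as virtual memory (VM) when CD44hi and CD49d-. The other 6 libraries were VM cells divided by the surface proteins Ly6C and Sca-1, and among them Ly6C+ Sca-1- and Ly6C+ Sca-1+ cells had 2 libraries each, called A and B here. All 8 libraries share the wild-type genotype and the spleen, and the labels used here give no age, sex, treatment, infection or number of pooled mice. The naive and true memory libraries were identified by their titles, because the cell type field of the labels calls all 8 libraries virtual memory cells.

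A naive CD8 T cell has not met its antigen, circulates between blood and lymphoid organs, and holds its growth and killing programmes in check with transcription factors such as TCF-1 and LEF-1. After antigen a memory cell keeps CD44, a receptor for hyaluronan in tissue matrix, and acquires transcription factors of the T-box family, cytotoxic proteins, chemokines and receptors that lead it into inflamed tissue. CD49d, the integrin alpha 4 chain, is used in mice to tell CD44hi cells that met antigen from VM cells, which gain a memory phenotype through cytokines without foreign antigen. In mouse spleen the CD8 alpha chain is also carried by type 1 conventional dendritic cells, which take up dead cells and present their antigens to CD8 T cells.

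The naive library held 55750230 counts and the true memory library 63126280, within the range of 49993407 to 63815914 over the 8 libraries. Levels are given as CPM (reads of a gene relative to the scaled library total) with TMM scaling, on which 1 count was worth 0.0177 CPM in naive and 0.0157 CPM in true memory. No count in the table was under 1, so a gene with 0 counts in 1 or more of the 8 libraries has no row and was not analysed here. Mitochondrially encoded genes took 3.45% of the counts in naive and 3.23% in true memory, and the 50 most abundant genes took 13.8% and 12.9%. Where a pair of levels is given for a gene, naive comes first and true memory after it. A difference is true memory minus naive on the log2 CPM scale with a prior count of 2. It has no replicate check, because each population has 1 library, so no p-value is given. Brackets after a difference hold the 95% interval of the log2 ratio of the counts, which covers counting error alone and not the spread between mice or sorts.

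The true memory library stood apart from the naive library, and from all 6 VM libraries, in genes of dendritic cells. All 11 measured members of the dendritic cell and MHC class II marker list were at least 2-fold higher in true memory, as were 7.23% of all genes compared, with differences of 4.85 to 6.15 and a median of 5.59. Their summed level was 131 CPM in naive, 5319.6 CPM in true memory and 46.9 to 357 CPM in the VM libraries. Xcr1, the chemokine receptor that defines type 1 conventional dendritic cells, was at 1.08 and 67.8 CPM in naive and true memory and at 0.0594 to 2.92 CPM in VM libraries. Clec9a, their receptor for dead cells, was at 1.01 and 74.3 CPM and at 0.178 to 2.68 CPM in VM. Cd74, the invariant chain of MHC class II, was at 55.8 and 2060.2 CPM and at 9.07 to 152 CPM in VM. The highest VM value of each of these 3 genes thus lay far below true memory. Flt3, the growth factor receptor of dendritic cells, was at 1.42 and 84.2 CPM, and Siglech, a receptor of plasmacytoid dendritic cells, at 0.745 and 27.4 CPM. In bulk RNA, more cells of a type and more RNA per cell cannot be told apart. With 1 true memory library, no difference below could be recomputed without this one, and the part of dendritic cell RNA in each was not tested.

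Markers of other cell types were mostly low in both libraries, and mostly higher in true memory. Monocyte and macrophage markers summed to 21.1 CPM in naive and 147 CPM in true memory over 10 measured genes, with Csf1r, the receptor for macrophage growth factor, at 3.46 and 33.5 CPM and Lyz2, lysozyme, at 2.56 and 52.9 CPM. NK cell markers summed to 41.5 and 327 CPM over 5 genes. Most of these sums came from Eomes at 38 and 122 CPM and Gzma at 0.248 and 133 CPM, which memory CD8 T cells can also express. Tyrobp, at 1.24 and 40.8 CPM, is shared with myeloid cells. CD4 T cell markers summed to 11.2 and 40.1 CPM over 5 genes, with Cd4 itself at 0.444 and 7.78 CPM. Gamma delta and innate-like T cell markers summed to 13.2 and 44.1 CPM over 6 genes, with the delta constant gene Trdc at 8.34 and 13 CPM. B cell markers summed to 27.9 and 44.3 CPM over 7 genes, with Cd79a at 2.01 and 1.46 CPM, while Cd22, an inhibitory receptor of B cells, was at 0.852 and 18.2 CPM. Plasma cell markers summed to 37.9 and 122 CPM over 4 genes, with the immunoglobulin joining chain Jchain at 1.92 and 28.9 CPM. Most of these sums came from Xbp1 at 26.9 and 46.9 CPM and Irf4 at 8.98 and 44.7 CPM. Erythroid markers summed to 4.61 and 25.9 CPM over 5 genes, the one measured mast cell or neutrophil marker, Kit, was at 3.14 and 35.5 CPM, and platelet markers summed to 3.99 and 3.43 CPM over 2 genes. Stromal and endothelial markers went the other way, at 161 and 120 CPM over 4 genes, nearly all of it Pecam1, which T cells also express, at 158 and 117 CPM. The highest VM sum lay above true memory for monocyte and macrophage (169 CPM), gamma delta (169 CPM), CD4 (67.8 CPM) and plasma cell markers (144 CPM). The same held for B cell (50.3 CPM), erythroid (35.5 CPM), platelet (3.98 CPM) and stromal markers (157 CPM). For NK cell markers (268 CPM) and Kit (8.95 CPM) it lay below true memory. Single members did not all follow their sum. Lyz2 reached 22.6 CPM in VM and Trdc 8.64 CPM, both below true memory. Cd68, a macrophage marker, reached 19.4 CPM in VM against 28.7 CPM in true memory. Cd22, at up to 28.7 CPM in VM, lay above true memory, as did Zbtb7b, a CD4 marker (29.8 against 19.9 CPM). The part of all these markers in the differences was not tested either.

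The genes of the sort followed the gates for CD44 and, in part, for CD49d. Cd44 (Gene ID 12505, chromosome 2, 102811141 to 102901669 in GRCm38.p6) was at 6.18 and 144 CPM in naive and true memory, a difference of 4.54 [4.39 to 4.71], while the 2 replicated VM groups differed between their own libraries by at most 0.25. Itga4 (Gene ID 16401, chromosome 2, 79255426 to 79333114), which encodes CD49d, was at 813 and 1365 CPM. Its difference of 0.75 stayed under 2-fold and exceeded the 0.52 between replicate libraries, and all 6 VM libraries lay below naive at 244 to 566 CPM. The CD8 and CD3 chain genes of the sort list were all lower in true memory and all within 2-fold. Cd8a was at 1289.7 and 1169.7 CPM and Cd3e, the epsilon chain of CD3, at 424 and 390.0 CPM. Their differences of -0.14 and -0.12 did not exceed the replicate differences of 0.20 and 0.18. Cd3d was at 340 and 284 CPM (-0.26) and Cd3g at 452 and 344 CPM (-0.40), both beyond their replicate differences of 0.095 and 0.15. Cd8b1, the CD8 beta chain that conventional CD8 T cells carry, was at 1099 and 825 CPM, a difference of -0.41. Ly6c2, for Ly6C, was at 135 and 335 CPM, Ly6a, for Sca-1, at 8.54 and 28.6 CPM, and Il2rb, the receptor chain for IL-2 and IL-15, at 223 and 625 CPM. Ly6c2 has a near-identical neighbour, Ly6c1, which was at 10.5 and 27.1 CPM, so the split of reads over this pair is uncertain.

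Of 15609 genes, 10118 entered the comparison with a mean of at least 5 CPM over the 2 libraries. True memory was at least 2-fold higher in 732 of them (7.23%) and at least 2-fold lower in 33 (0.326%), together 7.56%. List counts in this report are to be read beside these shares. At a share of 0.326%, most short lists would hold 0 lower members. The filter used the same 2 libraries. A gene near 0 in 1 library could thus enter only through a high level in the other, which also made it a called gene. The median difference over all genes that entered was -0.01, with an interquartile range of -0.19 to 0.22. The excess grew with size: 458 genes were at least 4-fold higher and 1 was at least 4-fold lower, and 225 were at least 16-fold higher against 0 lower. The 732 higher genes summed to 7201 CPM in naive and 40683 CPM in true memory, and the 33 lower genes to 3508 and 1627 CPM. Protein-coding genes made up 720 of the higher and 25 of the lower genes, and 7 of the lower genes were long noncoding RNAs.

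**Figure D1:**
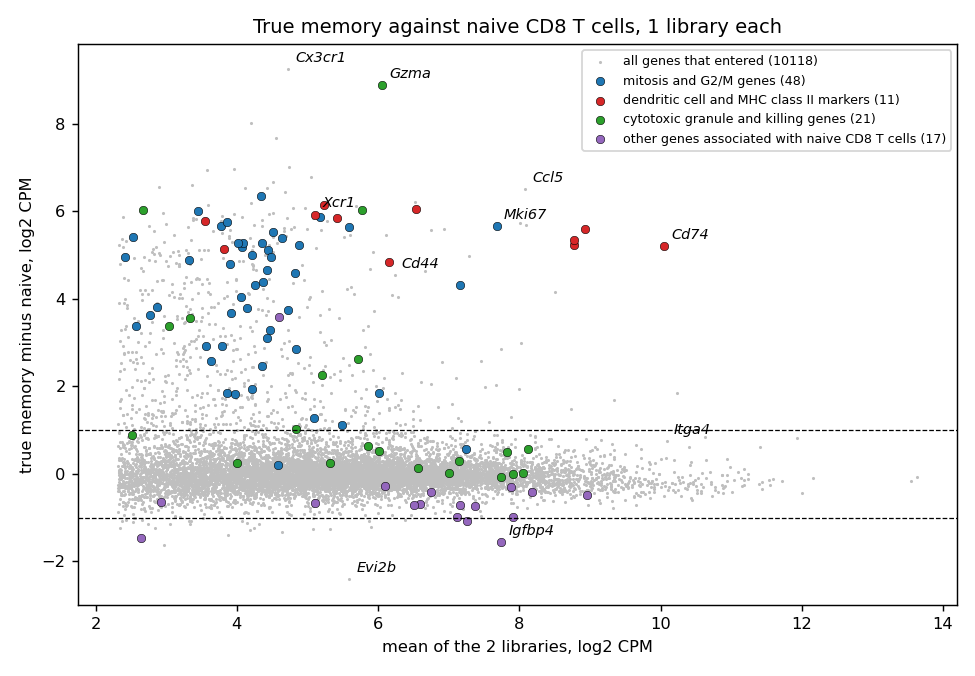
Each point is 1 of the 10118 genes that entered, with its mean level in the 2 libraries on the x axis (log2 CPM) and true memory minus naive on the y axis (log2 CPM), dashed lines at 2-fold, and 4 gene lists in colour. The 732 genes above the upper line reach 9.24, whereas the 33 below the lower line reach -2.41, and the dendritic cell markers (red) and mitosis genes (blue) lie far above 0.

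The only replicate spread in the series is between libraries A and B of the Ly6C+ VM groups. Under the same fold, and with the 5 CPM filter applied to each pair of libraries, 84 of 9815 genes (0.856%) in Ly6C+ Sca-1- cells and 59 of 9916 (0.595%) in Ly6C+ Sca-1+ cells differed at least 2-fold between their 2 libraries, in either direction. The like share for true memory against naive, in either direction, was 7.56%, well above both. The replicate shares were not split by direction, so the 0.326% of genes at least 2-fold lower has no like share here. Gene by gene, 730 of the 732 higher and 28 of the 33 lower genes had a difference larger than both replicate differences of that gene, as had 53.0% of all genes that entered. The median absolute difference was 0.20 between true memory and naive, and 0.15 and 0.13 between the replicate libraries. Counting error was small beside this, with a median half-width of 0.084, although the interval of 83 called genes reached inside 2-fold.

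**Figure D2:**
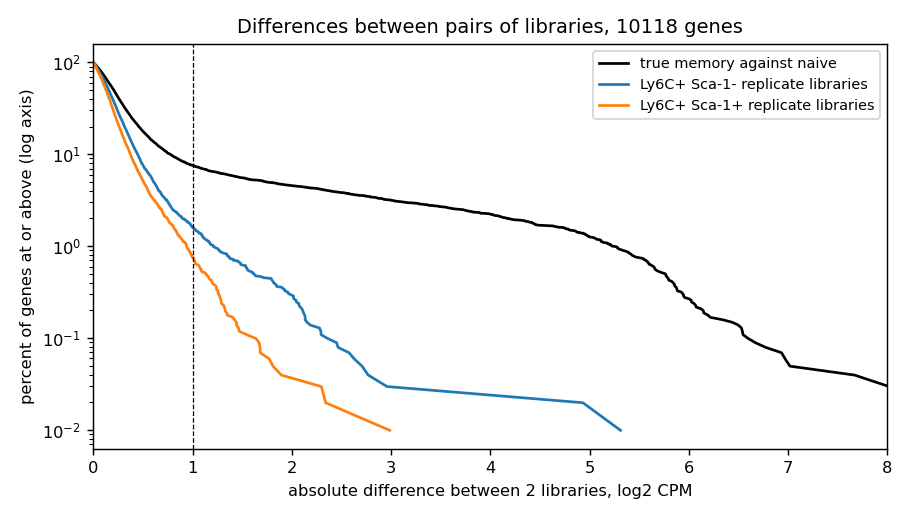
The curves give the percent of the 10118 genes (y axis, log scale) whose 2 libraries differ by at least the absolute log2 CPM difference on the x axis, for true memory against naive (black) and for the replicate libraries of the Ly6C+ VM groups (colours), with a dashed line at 2-fold. The genes are those that entered for true memory and naive, so the replicate curves at 2-fold are not the shares given for each pair's own filter, and the black curve lies above both of them.

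Of the 732 higher genes, 168 had all 6 VM libraries between the naive and true memory levels, 266 had at least 1 VM library above true memory and none below naive, and 229 had at least 1 VM library below naive and none above true memory. In the other 69, VM libraries lay on both sides. Among the 33 lower genes, 30 had at least 1 VM library below true memory and none above naive. These counts place levels side by side and are no comparison of VM cells with naive cells.

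Transcription factors of memory and effector cells were higher in true memory as a group. Of 24 members that entered, 14 were at least 2-fold higher, 0 were lower, all 24 differences were above 0 (48.6% of all genes were), and the median was 1.43. Tbx21, which encodes T-bet, a driver of effector and memory differentiation, was at 4.83 and 93.6 CPM in naive and true memory and at 27 to 141 CPM in VM libraries. Eomes, its T-box relative that sustains memory cells, was at 38 and 122 CPM and at 133 to 256 CPM in VM. Both T-box genes had VM libraries above true memory, whereas Zeb2, Bhlhe40, Irf8 and Prdm1 were highest in true memory. Zeb2, a repressor that promotes terminal effector cells and is also used by dendritic cells, was at 0.337 and 34.3 CPM, a difference of 6.53 [6.02 to 7.41], and reached 5.63 CPM in VM. Bhlhe40, a factor of tissue-resident and cytokine-producing T cells, was at 1.42 and 101 CPM and at 11 to 88.5 CPM in VM. Irf8, which type 1 dendritic cells require, was at 9.57 and 302 CPM and reached 50.9 CPM in VM. Prdm1, encoding the effector repressor Blimp-1, was at 0.603 and 11.7 CPM, and Runx2, of the Runx family, at 5.36 and 66.7 CPM. Id2, an inhibitor of E proteins that supports effector cells, was at 148 and 200.2 CPM and within 2-fold, as was Tox, a factor of chronically stimulated T cells, at 56.7 and 59.2 CPM. The 2 most abundant members, Klf6 and Ikzf3, were also within 2-fold, at 506 and 669 and 338 and 490.0 CPM.

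Genes of cytotoxic granules and killing divided into a strongly higher part and a shared part. Of 21 members that entered, 8 were at least 2-fold higher and 0 lower, with a median of 0.58. Gzma (Gene ID 14938, chromosome 13, 113093824 to 113100981), the protease granzyme A, had 14 counts in naive and 8475 in true memory, or 0.248 and 133 CPM, a difference of 8.88 [8.32 to 9.93], with VM libraries at 1.51 to 13.1 CPM. Gzmb, granzyme B, was at 1.62 and 108 CPM and at 2.53 to 42.3 CPM in VM. Fasl, the ligand of the death receptor Fas, was at 0.16 and 12.6 CPM. For each of these 3, true memory held the highest of the 8 values. Gzmm, granzyme M, was at 1.42 and 15 CPM, below the 51.8 CPM of the highest VM library. Prf1, the pore protein perforin, was at 45.5 and 70.6 CPM and within 2-fold. Nkg7, a granule membrane protein, was at 224 and 334 CPM and Ctsw, cathepsin W, at 263 and 265 CPM (a difference of 0.01, or -0.05 under upper quartile scaling), so both libraries held these transcripts.

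Of 13 cytokine and chemokine genes that entered, 6 were at least 2-fold higher and 0 lower, with a median of 0.33. Over all 17 measured genes of the list, low ones included, 11 had a difference above 0 and the median was 1.76. Ccl5, a chemokine stored by memory CD8 T cells, was at 5.89 and 536 CPM, a difference of 6.50 [6.35 to 6.67], and at 122 to 385 CPM in VM libraries. Ifng, interferon gamma, was at 1.46 and 57.2 CPM and at 18.9 to 73.1 CPM in VM. Ccl3 and Ccl4, chemokines of inflammation, were at 0.337 and 21 CPM and 1.1 and 23.2 CPM. Xcl1, the ligand of XCR1, was at 4.67 and 15.9 CPM and Tnfsf14, the costimulatory ligand LIGHT, at 2.59 and 15.7 CPM. The tumour necrosis factor cluster did not follow: Tnf was at 21.3 and 16.4 CPM, Lta, lymphotoxin alpha, at 14.1 and 10.8 CPM and Ltb, lymphotoxin beta, at 372 and 259 CPM, with differences of -0.38, -0.39 and -0.52.

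Of 18 homing and egress receptors that entered, 6 were at least 2-fold higher and 1 lower, with a median of 0.20. Cx3cr1 (Gene ID 13051, chromosome 9, 120048683 to 120068296), the receptor for fractalkine on endothelium, had 3 counts in naive and 3377 in true memory, a difference of 9.24 [8.41 to 12.24]. This was the largest difference of any gene that entered, and VM libraries lay at 0.317 to 9.24 CPM. Cxcr3, which draws T cells to interferon-induced chemokines, was at 5.48 and 95.6 CPM and at 45.2 to 142 CPM in VM. Gpr15, a gut homing receptor, was at 1.1 and 9.91 CPM, and Cxcr5, which leads into B cell follicles, at 2.75 and 16.7 CPM. Ccr7, the lymph node homing receptor, was at 382 and 287 CPM, and S1pr1, the egress receptor, at 435 and 337 CPM, both within 2-fold. The 1 member at least 2-fold lower was Ccr9, a receptor for the small intestine and thymus, at 208 and 99.1 CPM. Integrin chains had 5 of 15 at least 2-fold higher and 0 lower. Itgb1, the beta chain that pairs with CD49d in VLA-4, was at 58 and 462 CPM, Itgal, the LFA-1 alpha chain, at 624 and 989 CPM, and Itgae, the CD103 chain, at 318 and 161 CPM with a difference of -0.99. Itgax, for CD11c, which is also the classic dendritic cell integrin, was at 2.72 and 183 CPM and at 15.8 to 32.4 CPM in VM.

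Cytokine receptors differed member by member, with 6 of 26 at least 2-fold higher, 0 lower and a median of 0.16. Il18rap, the accessory chain of the IL-18 receptor, was at 8.13 and 138 CPM and at 38.5 to 279 CPM in VM. Il12rb2, the inducible IL-12 receptor chain, was at 1.44 and 14.9 CPM and Il10ra, the IL-10 receptor alpha chain, at 27.2 and 135 CPM. Csf2rb, the shared beta chain for GM-CSF, IL-3 and IL-5, used by myeloid cells, was at 0.426 and 42.8 CPM and reached 3.86 CPM in VM, and its reads may be shared with its close copy Csf2rb2 at 0.461 and 27 CPM. Il7r, the IL-7 receptor that maintains resting T cells, was at 518 and 358 CPM, and Il2rg, the common gamma chain, at 663 and 525 CPM, both within 2-fold. Among costimulatory receptors, with a median of 0.03 (-0.03 under upper quartile scaling), 1 of 15 was at least 2-fold higher, against 7.23% of all genes. It was Cd86 at 13.5 and 48.8 CPM, a ligand of CD28 made by antigen-presenting cells. Cd28 itself was at 135 and 216 CPM and Cd27 at 259 and 240.1 CPM.

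NK receptor genes were at least 2-fold higher in 9 of 12 members that entered, with 0 lower and a median of 4.31. Over all 16 measured genes of the list, low ones included, 15 had a difference above 0 and the median was 4.09. Klrc1, which encodes the inhibitory receptor NKG2A, was at 0.106 and 36.5 CPM and at 10.8 to 25.1 CPM in VM libraries. Its partner Klrd1, CD94, was at 110.2 and 119 CPM and so differed by 0.11. Slamf7, an activating receptor, was at 4.4 and 114 CPM and at 56.5 to 66.9 CPM in VM. Tyrobp and Fcer1g, signalling adaptors shared by NK and myeloid cells, were at 1.24 and 40.8 and 1.38 and 16.4 CPM. Tyrobp reached 6.55 CPM in VM. Cd244a was at 0.55 and 19.4 CPM and Klri1 at 0.39 and 13.9 CPM, and they reached only 1.57 and 1.16 CPM in VM. Which cells carried these transcripts was not tested. Inhibitory receptors and ectoenzymes were at least 2-fold higher in 10 of 19, with 0 lower and a median of 1.36. Lag3, which binds MHC class II, was at 1.26 and 35.9 CPM and at 0.733 to 38.6 CPM in VM, and Pdcd1, encoding PD-1, at 2.32 and 15.7 CPM. Tigit, a receptor for nectin-like ligands, was at 2.89 and 30.2 CPM, and Ctla4, the competitor of CD28, at 14.5 and 74 CPM. Havcr2, encoding TIM-3, which type 1 dendritic cells also carry, was at 0.887 and 61.8 CPM and reached 6.58 CPM in VM. Vsir and Pecam1 were lower within 2-fold, with differences of -0.40 and -0.44.

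**Figure D3:**
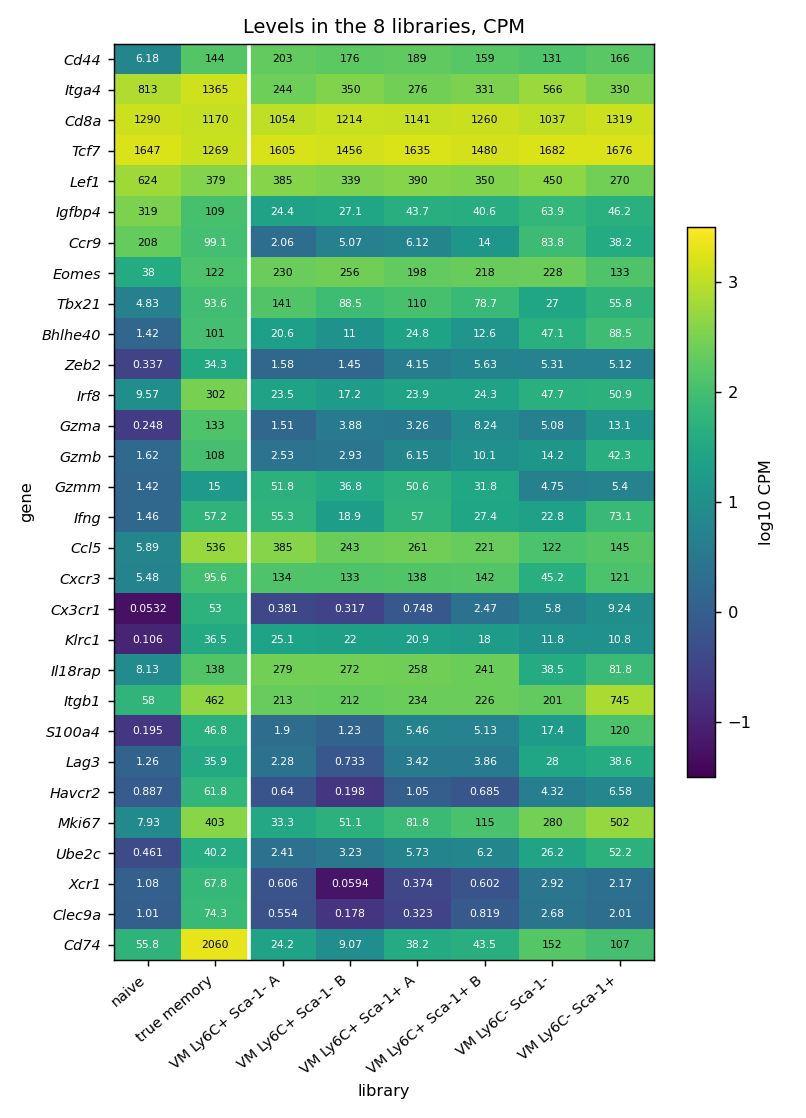
Each cell gives the TMM-scaled CPM of 1 gene (row) in 1 of the 8 libraries (column), coloured by log10 CPM, with a white line between the naive and true memory libraries and the 6 VM libraries. Cx3cr1, Gzma, Zeb2, Irf8, Havcr2, Xcr1, Clec9a and Cd74 are highest in true memory by a wide margin, whereas Eomes, Cxcr3, Il18rap and Mki67 have VM libraries at or above the true memory level.

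Genes of the cytoskeleton, annexins, galectins and S100 calcium-binding proteins, which T cells raise as they become motile effector cells, were at least 2-fold higher in 11 of 25, with 0 lower and a median of 0.74. S100a4 was at 0.195 and 46.8 CPM and at 1.23 to 119.8 CPM in VM, and S100a6 at 0.408 and 45.1 CPM. Lgals3, galectin 3, was at 1.86 and 68.1 CPM, and Anxa2, a membrane-binding annexin, at 8.91 and 146 CPM. Ahnak, a large scaffold protein, was at 309 and 989 CPM, while the most abundant member, the actin crosslinker Flna, was at 1421 and 1775 CPM and within 2-fold.

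Cell division genes were higher in true memory almost throughout. Of 48 mitosis and G2/M genes that entered, 46 were at least 2-fold higher in true memory and 0 lower, all 48 differences were above 0 and larger than both replicate differences, and the median was 4.35. Mki67, the proliferation antigen, was at 7.93 and 403 CPM, a difference of 5.66 [5.53 to 5.80], with VM libraries from 33.3 to 502 CPM. Ube2c, which feeds the anaphase-promoting complex, was at 0.461 and 40.2 CPM, and Ccna2, cyclin A2, at 1.19 and 71 CPM. Top2a, the topoisomerase that untangles chromosomes, was at 13.6 and 272 CPM, and Aurkb, a mitotic kinase, at 0.816 and 33 CPM. The exceptions were Racgap1, a cytokinesis protein, at 122 and 181 CPM, and Pttg1, securin, at 22.3 and 25.7 CPM. The whole list summed to 333 CPM in naive, 2521 CPM in true memory and 492 to 3226 CPM in VM libraries, so at least 1 VM library lay above true memory. DNA replication genes followed with 21 of 33 at least 2-fold higher, 0 lower and a median of 1.52. E2f8, a repressor of the E2F family active in S phase, was at 0.657 and 29 CPM, and Rrm2, a subunit of ribonucleotide reductase, at 4.72 and 89.2 CPM. Pcna, the replication clamp, was at 137 and 192 CPM and Cdt1, a licensing factor that is degraded once replication starts, at 72.5 and 67.4 CPM, both within 2-fold. Of 10 cell cycle inhibitors, 1 was at least 2-fold higher, against 7.23% of all genes. It was Cdkn2c, at 3.37 and 16.4 CPM, and the median of the list was 0.05 (-0.01 under upper quartile scaling). How much of this came from dividing T cells and how much from dividing cells of another type was not tested.

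The promoters of the mitosis and replication lists were searched for letters through which such genes are known to be controlled. These were CCAAT, bound by NF-Y, and TTTGAA, a form of the cell cycle homology region bound by the DREAM complex. They also included TTCCCGC and TTGGCGC, forms of the E2F site. Motif shares of a list depend on its members and not on the differences measured here. The windows were the 250 bases before each transcript start given by RefSeq on GRCm38.p6, and both strands were searched. A start can lie inside its gene: 22 of the 43 mitosis windows and 16 of the 36 replication windows overlapped the annotated span of their own gene, as did 54.8% of the windows of all genes in the table. CCAAT was present in 72.1% of 43 windows of 41 mitosis and G2/M genes, in 33.8% of all 32851 windows and in 35.5% of the windows of genes that entered. TTTGAA was in 34.9% of the mitosis windows, in 16.0% of all windows and in 10.6% of those of genes that entered. Both were in 30.2% of the mitosis windows, 5.55% of all windows and 4.15% of those of genes that entered. The E2F letters were in 33.3% of 36 windows of 30 DNA replication genes, 5.62% of all windows and 10.2% of those of genes that entered, and CCAAT was in 58.3% of the replication windows. Other letters were searched as well. AP-1 (TGANTCA) was in 0% of the mitosis and 0% of the replication windows against 6.75% of all windows, and KLF (CCACCC) was in 34.9% and 33.3% against 28.1%. T-box (TCACAC) was in 4.65% and 11.1% against 12.3%, RUNX (TGTGGT) in 11.6% and 11.1% against 14.0%, and TCF/LEF (CTTTGA) in 9.30% and 5.56% against 13.8%. In the windows of genes that entered, the shares were 4.10% for AP-1, 32.1% for KLF, 9.13% for T-box, 11.2% for RUNX and 10.4% for TCF/LEF. Among all windows of genes at least 2-fold higher, the shares were 37.4% for CCAAT, 14.5% for TTTGAA and 8.28% for E2F. A match is a run of letters and no evidence of binding. The sequences below were chosen because they hold these letters and lie wholly outside the span of their gene, and they are shown to place the letters next to each other in the promoters of 2 mitosis genes and 2 replication genes. Of the genes with 1 window whose differences rank between those of Ube2c and Kif11, Nuf2, Hmmr and Bub1 do not hold both motifs, and Mki67 holds both in a window that reaches into its gene. Among replication genes that rank above Rrm1, Mcm10, Rrm2, Tk1, Cdc45, Tyms and E2f1 hold no E2F match, and E2f8 and Cdc6 hold one inside the span of the gene. Capitals mark CCAAT or its reverse ATTGG and TTTGAA or its reverse TTCAAA in the first 2 sequences, and the E2F letters or their reverse in the other 2. TTGGCGC can overlap the reverse of CCAAT. Each is printed 5′ to 3′ on the strand of its gene.
Ube2c, chr2:164769679-164769928, plus strand: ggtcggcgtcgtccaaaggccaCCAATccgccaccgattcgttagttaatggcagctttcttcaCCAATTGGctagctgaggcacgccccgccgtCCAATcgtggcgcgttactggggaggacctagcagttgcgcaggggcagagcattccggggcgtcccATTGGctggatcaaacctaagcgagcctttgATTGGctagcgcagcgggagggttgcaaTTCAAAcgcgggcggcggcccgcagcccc
Kif11, chr19:37376132-37376381, plus strand: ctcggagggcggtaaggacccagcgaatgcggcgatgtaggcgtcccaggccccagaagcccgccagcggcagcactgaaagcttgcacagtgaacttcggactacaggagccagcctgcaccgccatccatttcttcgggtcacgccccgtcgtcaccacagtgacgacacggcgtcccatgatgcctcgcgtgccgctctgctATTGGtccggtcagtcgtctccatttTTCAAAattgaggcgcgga
Chaf1a, chr17:56040166-56040415, plus strand: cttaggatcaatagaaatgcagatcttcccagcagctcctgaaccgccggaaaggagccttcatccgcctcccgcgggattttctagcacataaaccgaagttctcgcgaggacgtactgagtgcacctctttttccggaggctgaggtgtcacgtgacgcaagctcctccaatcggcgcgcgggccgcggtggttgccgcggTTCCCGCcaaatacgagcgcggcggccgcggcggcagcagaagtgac
Rrm1, chr7:102441445-102441694, plus strand: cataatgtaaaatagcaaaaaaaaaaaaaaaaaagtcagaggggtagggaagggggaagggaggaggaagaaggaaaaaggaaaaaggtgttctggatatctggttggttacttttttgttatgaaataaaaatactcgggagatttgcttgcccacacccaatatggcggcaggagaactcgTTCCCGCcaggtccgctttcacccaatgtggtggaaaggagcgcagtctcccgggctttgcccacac
The Ube2c window holds CCAAT 6 times and TTTGAA 1 time, and the window of Kif11, a kinesin of the mitotic spindle at 1.88 and 94.8 CPM, holds each of them 1 time. Chaf1a, a histone chaperone subunit at 3.41 and 29.7 CPM, and Rrm1, the large subunit of ribonucleotide reductase at 33.2 and 119 CPM, hold 1 E2F match each.

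**Figure D4:**
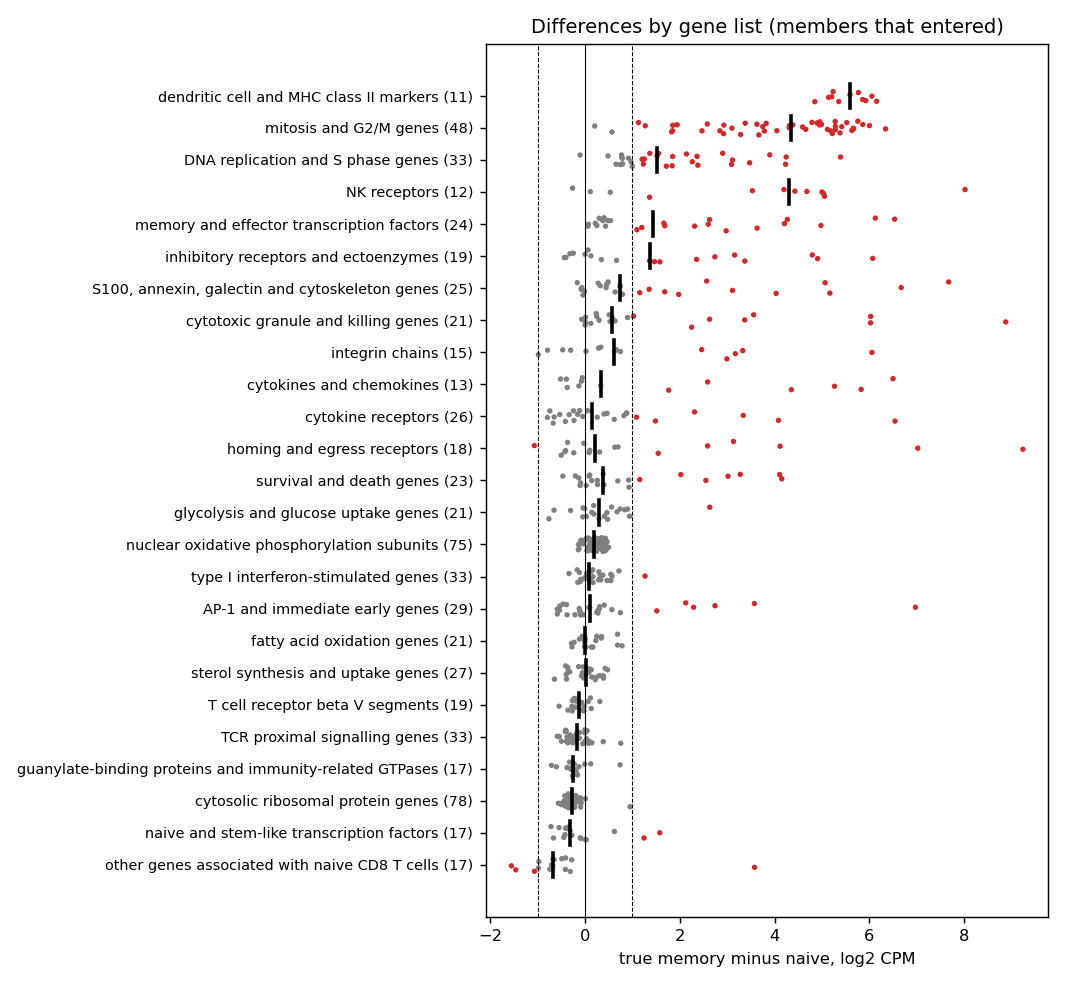
Each point is the difference of 1 gene that entered (true memory minus naive, log2 CPM, x axis) in 1 of 25 gene lists (rows, with the number of genes), red where it is at least 2-fold, with the median of the list as a black bar and dashed lines at 2-fold. Dendritic cell markers, mitosis genes and NK receptors have medians of 5.59, 4.35 and 4.31, and genes associated with naive cells have the lowest median, -0.68.

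Over the naive-associated lists, 3 genes were at least 2-fold lower and 3 at least 2-fold higher, and most lay below 0 within 2-fold. Of 17 naive and stem-like transcription factors that entered, 12 had a difference below 0, with a median of -0.31 and none at least 2-fold lower. Tcf7, encoding TCF-1, was at 1647 and 1269 CPM, a difference of -0.38, with VM libraries at 1456 to 1682 CPM. Lef1, encoding LEF-1, was at 624 and 379 CPM and at 269.7 to 450.3 CPM in VM, and Satb1, a chromatin organiser, at 695 and 438 CPM. The exceptions at least 2-fold higher were Myb, which keeps memory cells stem-like, at 39.1 and 117 CPM, and Bcl6, a repressor of effector genes, at 14.8 and 35.1 CPM. Of 17 other genes associated with naive CD8 T cells, 16 had a difference below 0, with a median of -0.68, 3 at least 2-fold lower and 1 at least 2-fold higher. The 3 lower genes were Igfbp4, a binding protein of insulin-like growth factors, at 319 and 109 CPM with VM libraries at 24.4 to 63.9 CPM, Gpr83, a G protein-coupled receptor, at 9.18 and 3.31 CPM, and Ccr9. Ccr9 was at 2.06 to 83.8 CPM in VM, below the 99.1 CPM of true memory in every library. Dapl1, a transcript typical of naive and stem-like CD8 T cells, was at 113 and 69.2 CPM. The higher one was Cd24a, for CD24, which dendritic cells also express, at 3.73 and 44.8 CPM.

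The single gene at least 4-fold lower was Evi2b (Gene ID 216984, chromosome 11, 79513385 to 79523762), at 81.2 and 15.3 CPM, a difference of -2.41 [-2.51 to -2.31]. Its difference exceeded the 1.40 seen between replicate VM libraries, whose levels ran from 6.77 to 54.5 CPM. The annotated gene Evi2 (79513385 to 79530609) covers Evi2b and its neighbour Evi2a. Evi2 was at 87.6 and 202 CPM and Evi2a at 10.3 and 32.6 CPM, both at least 2-fold higher. Because these genes overlap, the division of reads between them is uncertain, and so is the value of Evi2b. Next came Xntrpc at 11.9 and 3.83 CPM, a read-through transcript whose reads may be shared with overlapping genes. Further lower genes were Ntrk3, a neurotrophin receptor, at 35.8 and 14.2 CPM, Slc6a19, an amino acid transporter, at 83.3 and 35.8 CPM, and Rgcc, a regulator of the cell cycle, at 79.7 and 37.5 CPM. Of these, Evi2b, Ntrk3, Slc6a19 and Rgcc had at least 1 VM library below the true memory level, and Xntrpc had none.

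Genes tied to T cell receptor signals and immediate early genes were higher in some members and lower in others. Of 16 TCR-strength genes, 5 were at least 2-fold higher and 0 lower. Nr4a1, the immediate reporter of receptor signals, was at 98 and 189 CPM, Nr4a2 at 9.65 and 52.1 CPM, and Cd5, which tracks signal strength, at 216 and 216 CPM. Cd83, at 2.48 and 40.5 CPM, is also a marker of mature dendritic cells. Of 29 AP-1 and immediate early genes, 6 were at least 2-fold higher and the median was 0.10 (-0.04 with a filter of 20 CPM), with 6 of the 29 differing by more than both replicate differences, against 53.0% of all genes. Atf3, a stress-induced factor, was at 0.213 and 31 CPM, whereas Junb was at 1671 and 1113 CPM and Fos at 1016 and 737 CPM. Heat shock genes had 1 of 12 at least 2-fold higher, against 7.23% of all genes. It was Hspa1a at 82 and 198 CPM, whose replicate VM libraries differed by 5.31 and whose copy Hspa1b is near-identical. Proximal signalling genes of the T cell receptor had none of 33 past 2-fold in either direction and a median of -0.18, with Fyn, a Src-family kinase, at 331 and 432 CPM. Survival and death genes were at least 2-fold higher in 7 of 23, with 0 lower. Bcl2, which keeps resting lymphocytes alive, was at 251 and 181 CPM, and Bcl2l1, encoding BCL-XL, at 11.2 and 25 CPM. The Bcl2a1 copies, near-identical to each other, ranged up to 4.15, with Bcl2a1d at 1.26 and 23 CPM.

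Metabolic and ribosomal genes lay within 2-fold, with 1 exception, Hk2, and so did 9353 of all 10118 genes that entered. Of 75 nuclear-encoded subunits of oxidative phosphorylation, 66 had a difference above 0, none was past 2-fold, the median was 0.19 and 42 exceeded both replicate differences, as did 53.0% of all genes. Glycolysis and glucose uptake genes had 1 of 21 at least 2-fold higher, against 7.23% of all genes. That gene was hexokinase 2 (Hk2), at 2.59 and 16.2 CPM. Gapdh was at 223 and 372 CPM and Pdk1, which restrains pyruvate entry into mitochondria, at 314 and 185 CPM. Fatty acid oxidation and sterol synthesis genes had none past 2-fold, with medians of 0.01 over 21 and 0.01 over 27 genes, both just below 0 under upper quartile scaling (-0.05 and -0.04). Cpt1a, the gatekeeper of mitochondrial fatty acid import, was at 132 and 131 CPM. Cytosolic ribosomal protein genes lay lower together, 76 of 78 below 0, with a median of -0.27 and none past 2-fold. They summed to 88059 CPM in naive, 72405 CPM in true memory and 76298 to 107273 CPM in VM libraries. Of the 78, 48 exceeded both replicate differences, against 53.0% of all genes. The 2 most abundant, Rplp0 (-0.26) and Rpsa (-0.15), did not, with replicate differences of up to 0.34 and 0.30. Rps27l, an S27-like variant with a difference above 0, was at 8.61 and 16.7 CPM. Mitochondrial ribosomal protein genes had a median of 0.06 over 78 genes.

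Interferon-response genes lay within 2-fold, with 1 exception, and so did 9353 of all 10118 genes that entered. Of 33 type I interferon-stimulated genes, 1 was at least 2-fold higher, against 7.23% of all genes, and the median was 0.08. That gene was Mx1, listed as a transcribed pseudogene in the deposited table, at 20.2 and 48.5 CPM. Of 17 guanylate-binding proteins and immunity-related GTPases, none was past 2-fold, 15 had a difference below 0 and the median was -0.25, with Tgtp1 at 182 and 111 CPM as the lowest difference, -0.71. Class I antigen processing genes had none of 17 past 2-fold, with H2-K1 at 3239 and 2962 CPM. STAT5 and SOCS genes had 1 of 13 at least 2-fold higher, against 7.23% of all genes. It was Il2rb, and the median of the list was -0.14. Of the IL-4 and type 2 genes 3 entered, Gata3 at 38.6 and 47.5 CPM, Il4ra at 216 and 199.7 CPM and Stat6 at 316 and 273 CPM, and none was past 2-fold. Among regulatory-type genes, 4 of 8 were at least 2-fold higher, with Ikzf2, encoding Helios, at 30.5 and 96.6 CPM and Nrp1, neuropilin 1, at 2.11 and 28.5 CPM.

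T cell receptor beta V segments record the make-up of the repertoire, and those that entered lay within 2-fold. The 23 segments of the table held 22762 counts in naive and 23645 in true memory, and none of the 19 that entered was past 2-fold. Trbv21, which did not enter, had 26 and 11 counts, a difference of -1.26. Trbv13-2 made up 9.76% of the beta V counts in naive (exact Clopper-Pearson 95% interval 9.38 to 10.2) and 9.71% in true memory (9.33 to 10.1). Trbv12-2 made up 9.10% and 9.79%. The lowest difference among those that entered was that of Trbv12-1, at 6.82% (6.50 to 7.16) and 5.08% (4.81 to 5.37), and the highest that of Trbv19, at 3.72% (3.47 to 3.97) and 5.03% (4.75 to 5.31). The largest share of any segment in either library was thus 9.79%. Reads of segments with near-identical sequence, such as the Trbv12 and Trbv13 copies, may be divided between them, and the intervals cover counting error alone. Of 111 alpha V segments, 5 entered and none was past 2-fold, and none of 51 alpha J segments entered.

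**Figure D5:**
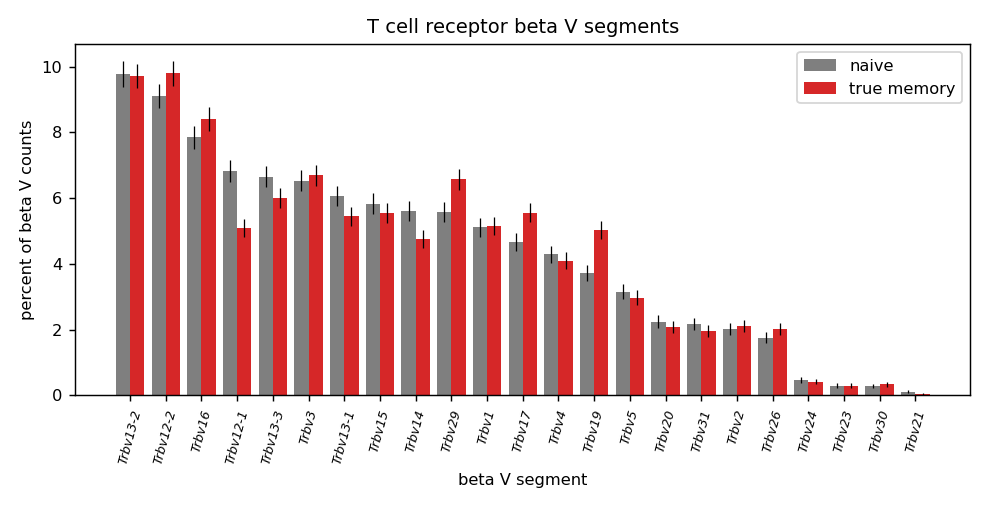
Bars give the percent of all T cell receptor beta V counts (y axis) that fell to each of 23 V segments (x axis) in naive (grey) and true memory (red), with exact 95% binomial intervals as lines, for 1 library each. Trbv13-2 and Trbv12-2 lie between 9.10% and 9.79% in both libraries, and Trbv12-1 has a smaller share in true memory (5.08%) than in naive (6.82%).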

How the data were processed

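Per the labels, stranded mRNA libraries (TruSeq) were sequenced as paired-end reads of 101 bp. Per the labels' protocols, read quality was assessed in FastQC 0.11.7, and adapters and poor bases were cut by Trimmomatic 0.38. Per the submitters' processing notes, the build was mm10 and R 3.6.0 with edgeR was used. No aligner or counting tool is named in the sources used here. All results start from the raw gene counts that the authors deposited. The deposited TPM, computed by the authors, was used for 1 alternative, and 22 other per-sample columns were not used. Levels were scaled with TMM factors over all 8 libraries (edgeR 4.0.16, R 4.3.3), and differences are log2 CPM with a prior count of 2. Genes entered at a mean of at least 5 CPM over the naive and true memory libraries and were called at 2-fold. Intervals are exact Clopper-Pearson 95% intervals of the share of the 2 counts, turned into log2 ratios. Reads without molecular identifiers are not independent molecules, so they cover counting error only. Library totals of 55750230 and 63126280 counts set that error. The script was tested on simulated data. RefSeq (GRCm38.p6) gave coordinates for 15567 genes.

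The libraries, the 37 gene lists and the 11 marker lists were chosen with earlier results of these data known. Genes are named by a rule: the sort genes, the 15 protein-coding genes with the largest difference in each direction, up to 4 called members of each list in each direction, the 2 most abundant members of each list, and the most abundant members of each marker list. Not all of these are described, some genes are not reported here, and other genes named, including those in the plot of levels by library, were chosen after their values were seen. Itgb3bp, a centromere protein gene, was left out of the integrins. Alternatives changed the scaling (including DESeq2 1.42.0 size factors), prior count, filter, unit and fold.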

Additional observations from a re-analysis of the deposited data

How the results depend on the processing

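With 1 library for each population, precision beyond counting error is unknown. No paired analysis was possible because each compared population has 1 library and the columns carry no replicate number. The counts kept within 1.5 times of 732 higher and 33 lower genes under every scaling (694 to 732 higher, 34 to 41 lower), under prior counts of 0.5 and 10, with the filter over all 8 libraries (653 and 28) and with the authors' deposited TPM (696 and 24). They moved further with the filter and the fold. Without a filter 1566 genes were higher and 317 lower, at 1 CPM 1184 and 104, and at 20 CPM 273 and 12. At 4-fold 458 were higher and 1 lower, and at 1.5-fold 1174 and 276. The higher share of called genes was 95.7%, against 83.2% without a filter and 81.0% at 1.5-fold. Fewer or more genes entered by construction. No gene named by the rule that was called changed sign under any alternative, and 2 lost the call with the deposited TPM, Grm6 (-1.24 to -0.95) and Bace1 (-1.15 to -0.90). List medians depended most on the filter, with shifts of -2.01 to 1.43 without one and -3.37 to 1.09 at 20 CPM. Medians that changed sign were those of IL-4 and type 2 genes (-0.12 to 0.30 without a filter and at 1 CPM), sort genes (0.31 to -0.13) and AP-1 genes (0.10 to -0.04) at 20 CPM, and alpha V segments (-0.12 to 0.04) with the filter over 8 libraries. Under upper quartile scaling 4 medians near 0 changed sign, and the median of all genes was -0.07.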

Other observations

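Some further genes at least 2-fold higher in true memory, on no list of the report and chosen after their values were seen, act in lysosomes, endosomes and antigen uptake. Psap, the precursor of the saposins that open lipids to lysosomal enzymes, was at 523 and 1885 CPM in naive and true memory and at 398 to 551 CPM in the VM libraries. Cst3, cystatin C, an inhibitor of cysteine proteases, was at 38.4 and 686 CPM and reached 66.9 CPM in VM. Mpeg1, the pore protein perforin-2 of phagocytes, was at 10.4 and 538 CPM. Ppt1 and Gm2a, which act on lipids in the lysosome, were at 51.6 and 374 CPM and 105 and 404 CPM. Wdfy4, which type 1 conventional dendritic cells need to cross-present cell-associated antigen, was at 9.49 and 505 CPM and reached 25.9 CPM in VM. Tlr3 and Tlr11, endosomal sensors, were at 0.532 and 27.3 CPM and 0.461 and 36.2 CPM. All of these were highest in true memory among the 8 libraries.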
